A study of Homo sapiens with 4 samples.

Results

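Of 5335 USF1 peaks found in both replicates of a chromatin immunoprecipitation (ChIP-seq) experiment, 411 lay where the ends of neighbouring genes meet. A peak of list 1 (IP 1 against input 1) was a member when it overlapped a peak of list 2 (IP 2 against input 2) by at least 1 bp, lay on chromosomes 1 to 22 or X, and had its centre within 1 kb of a start or end coordinate of at least 2 different protein-coding genes. These paired gene-end peaks made up 7.7% of the shared peaks (95% Wilson interval 7.02 to 8.45%) and 21.6% (19.8 to 23.5%) of the 1907 shared peaks within 1 kb of any protein-coding gene end. The other 1496 lay at a single gene and are called one-gene peaks below. The members were chosen by the peak calls and positions, so tag counts, folds and false discovery rates (FDRs) are given as descriptions, without a test. Each interval covers counting error only.

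The cells were Huh7, an established human hepatocellular carcinoma line, in which USF1 was overexpressed according to the series' design. Chromatin was crosslinked and sonicated and precipitated by an antibody to FLAG, and 2 IP libraries were each set against an input library of the same number, 4 libraries in all. The labels do not say whether the 2 replicates came from separate cultures, nor which promoter drove the overexpressed protein. IgG libraries and cells lacking the overexpressed protein were not used here. The libraries kept between 43562726 and 47165647 tags. None of 8 hepatocyte marker genes, ALB and HNF4A among them, had a shared peak at its ends. Over all protein-coding genes 4.15% were at a paired peak and 7.45% at a one-gene peak, so 8 genes are too few to show a difference. Transcript levels were not part of these files.

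USF1 is a basic helix-loop-helix leucine zipper factor that binds DNA as a dimer, classically at the palindromic E-box CACGTG. Many human genes lie close to a neighbour, and where 2 neighbours are transcribed away from each other (head-to-head), the stretch between their starts can serve as a bidirectional promoter. In a head-to-tail pair the promoter of 1 gene lies just behind the 3′ end of the other, and in a tail-to-tail pair only 3′ ends meet. A peak between neighbouring ends therefore has more than 1 candidate gene, and ChIP-seq does not tell them apart.

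Stretches between the gene ends are shown for pairs with the strongest peaks and for repair gene pairs, to place the E-boxes that lie in the gap. They are plus-strand sequence of GRCh38.p14 from RefSeq promoter windows, in lower case with each CACGTG in capitals. All the first set are head-to-tail pairs, shown next to the 5′ end of the gene named first. AMDHD2 with ATP6V0C (chr16:2520219-2520370), DVL2 with PHF23 (chr17:7234518-7234677) and GAA with CCDC40 (chr17:80101421-80101580) read as follows, and the first is the whole gap between its 2 genes.
AMDHD2/ATP6V0C: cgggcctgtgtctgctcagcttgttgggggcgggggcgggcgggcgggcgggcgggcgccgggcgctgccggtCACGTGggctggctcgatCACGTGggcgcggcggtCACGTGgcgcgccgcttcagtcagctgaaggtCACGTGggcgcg
DVL2/PHF23: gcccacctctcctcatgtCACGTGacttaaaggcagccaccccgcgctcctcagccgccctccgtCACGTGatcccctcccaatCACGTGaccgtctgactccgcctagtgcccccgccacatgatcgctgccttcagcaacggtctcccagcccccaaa
GAA/CCDC40: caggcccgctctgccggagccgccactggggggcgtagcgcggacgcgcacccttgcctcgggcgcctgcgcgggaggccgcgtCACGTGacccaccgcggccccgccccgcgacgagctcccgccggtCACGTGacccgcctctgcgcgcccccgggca

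Whole gaps between head-to-head starts are shown for 4 of the 15 strongest members, RPUSD4 with FAM118B (chr11:126211651-126211723), GLA with HNRNPH2 (chrX:101407926-101408221), GLYR1 with UBN1 (chr16:4847289-4847480) and CNPPD1 with RETREG2 (chr2:219178157-219178274). Those of the base excision repair genes NTHL1 with TSC2 (chr16:2047835-2047984) and TDG with UQCC6 (chr12:103965708-103965871) follow.
RPUSD4/FAM118B: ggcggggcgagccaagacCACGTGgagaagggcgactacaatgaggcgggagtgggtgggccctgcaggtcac
GLA/HNRNPH2: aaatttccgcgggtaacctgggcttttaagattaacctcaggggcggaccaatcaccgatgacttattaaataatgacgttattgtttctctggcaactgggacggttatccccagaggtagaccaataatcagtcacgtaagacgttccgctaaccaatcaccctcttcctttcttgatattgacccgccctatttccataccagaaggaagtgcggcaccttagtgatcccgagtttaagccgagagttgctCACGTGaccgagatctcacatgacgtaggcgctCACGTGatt
GLYR1/UBN1: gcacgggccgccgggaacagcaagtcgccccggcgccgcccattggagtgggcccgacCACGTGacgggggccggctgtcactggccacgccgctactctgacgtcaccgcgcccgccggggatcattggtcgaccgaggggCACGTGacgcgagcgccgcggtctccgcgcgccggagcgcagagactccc
CNPPD1/RETREG2: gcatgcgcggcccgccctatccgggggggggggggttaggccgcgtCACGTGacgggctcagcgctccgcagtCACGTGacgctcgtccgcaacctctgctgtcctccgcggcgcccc
NTHL1/TSC2: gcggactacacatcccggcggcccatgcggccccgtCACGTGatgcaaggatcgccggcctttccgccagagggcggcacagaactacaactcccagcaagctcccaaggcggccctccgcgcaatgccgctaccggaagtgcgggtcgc
UQCC6/TDG: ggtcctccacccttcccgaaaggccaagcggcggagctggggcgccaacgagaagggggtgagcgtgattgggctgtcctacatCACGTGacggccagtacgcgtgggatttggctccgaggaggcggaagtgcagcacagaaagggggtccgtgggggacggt

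A window of 30 bases is also given for FAM118B with RPUSD4 (chr11:126211709-126211738), whose promoters hold 3 E-boxes, because the one nearest the summits, at 11.5 bp in list 1 and 0.5 bp in list 2, runs past the end of that gap. Such windows are shown too round the 3 E-boxes of the APEX1 and OSGEP promoters (chr14:20455109-20455138, chr14:20455170-20455199 and chr14:20455191-20455220).
FAM118B/RPUSD4: ggccctgcaggtCACGTGgtgcggggtggg
APEX1/OSGEP left: aagcgtctccgtCACGTGgtgtcagacaga
APEX1/OSGEP middle: cgcgcctctgatCACGTGaccaggtccgct
APEX1/OSGEP right: aggtccgctaccCACGTGggggctcagcgt

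For contrast, these stretches of bound pairs hold no CACGTG. They are the 160 bases before the 5′ end of FAM174C in the gap to CIRBP (chr19:1275370-1275529), and the gaps of MITD1 with MRPL30 (chr2:99181059-99181183) and of the histone genes H2BC11 with H2AC11 (chr6:27132796-27133042).
FAM174C/CIRBP: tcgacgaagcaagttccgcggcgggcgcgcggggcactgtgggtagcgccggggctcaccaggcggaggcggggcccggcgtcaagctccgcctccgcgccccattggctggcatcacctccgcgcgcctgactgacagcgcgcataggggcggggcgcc
MITD1/MRPL30: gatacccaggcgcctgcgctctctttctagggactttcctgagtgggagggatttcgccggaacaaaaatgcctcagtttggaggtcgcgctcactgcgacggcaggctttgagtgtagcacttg
H2BC11/H2AC11: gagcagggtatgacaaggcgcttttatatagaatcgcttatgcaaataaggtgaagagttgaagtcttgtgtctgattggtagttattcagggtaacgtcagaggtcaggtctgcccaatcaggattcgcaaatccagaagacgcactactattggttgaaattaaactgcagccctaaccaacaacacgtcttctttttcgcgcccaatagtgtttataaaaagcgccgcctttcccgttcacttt

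The strongest paired peak lay between ATP6V0C, the membrane-embedded proteolipid subunit of the vacuolar proton pump, and AMDHD2, a deacetylase of N-acetylglucosamine 6-phosphate. It spanned chr16:2519879-2520892 and held 282 IP tags at 32.99-fold over input in list 1, and 461 tags at 65.37-fold in list 2. The pair is head-to-tail: both genes run along the plus strand, and the peak centre lay 14.5 bp from the 5′ end of AMDHD2 and 167.5 bp from the 3′ end of ATP6V0C. All 4 E-boxes of the AMDHD2 promoter fall in the 152 bases printed above. The summit lay 10.5 bp from the nearest of them in list 1 and 4.5 bp in list 2. Among the 367 members with a promoter sequence this was the one with the most E-boxes.

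DVL2, a dishevelled protein of the Wnt pathway, and PHF23, a PHD finger protein, both run along the minus strand, so the 5′ end of DVL2 follows the 3′ end of PHF23. Their peak at chr17:7234003-7235109 held 180 tags at 25.89-fold in list 1, against 206 tags at 34.29-fold in list 2. The centre lay 39.0 bp from the DVL2 start and 482.0 bp from PHF23. Each of the 3 E-boxes printed above reads TCACGTGA on the plus strand, and the summits lay 2.5 bp (list 1) and 10.5 bp (list 2) from the nearest. In both of these head-to-tail pairs the peak centre was therefore nearer to the 5′ end of 1 gene. The list 1 peak also covered the 3′ end of the other gene.

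Next come pairs of GLA and GAA, which are on the lysosome and autophagy list used below, and of GALNS and PLD3, which are not on it but also encode lysosomal enzymes. GALNS, the lysosomal galactosamine sulfatase, overlaps TRAPPC2L, a vesicle-tethering subunit, head-to-head, at 25.05-fold in list 1 and 19.63-fold in list 2. GLA (alpha-galactosidase A, head-to-head with HNRNPH2, which encodes an RNA-binding protein) had 20.45-fold and 17.86-fold. GAA, the lysosomal alpha-glucosidase, had 16.6-fold and 20.12-fold, with its 5′ end 63.5 bp from the centre and the 3′ end of the ciliary gene CCDC40 904.5 bp away. PLD3, which encodes a lysosomal exonuclease, shares a head-to-head gap of 168 bp with C19orf47, and its folds were 15.4 and 15.51.

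Other pairs of the first 15 held genes of other kinds. FAM118B and RPUSD4, the second of which encodes a mitochondrial pseudouridine synthase, lie 74 bp apart head-to-head and had 25.82-fold and 36.52-fold. SLC35B2, a Golgi transporter of the sulfate donor PAPS, beside NFKBIE, an NF-kappaB inhibitor, had 18.75-fold and 20.36-fold. UBN1 (a histone chaperone subunit) and GLYR1 (a nucleosome-binding cofactor) had 17.36-fold and 31.43-fold. These 3 pairs each ranked in the same order of lists, with list 2 higher. CNPPD1 with RETREG2, a gene of the ER-phagy receptor family, had 17.27-fold and 21.61-fold. CIRBP, a cold-inducible RNA-binding protein, ends 650 bp before FAM174C, and the peak had 17.19-fold and 34.56-fold. GTF2H1, a TFIIH subunit, with HPS5, a subunit of the BLOC-2 complex of lysosome-related organelles, had 17.01-fold and 31.52-fold. The pair of APEX1, the main abasic-site endonuclease, and OSGEP, a tRNA-modifying enzyme, had 16.91-fold and 30.06-fold. Neither list gave an FDR above 0% to any of the 15 peaks, and 12 of them had the higher fold in list 2.

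**Figure D1:**
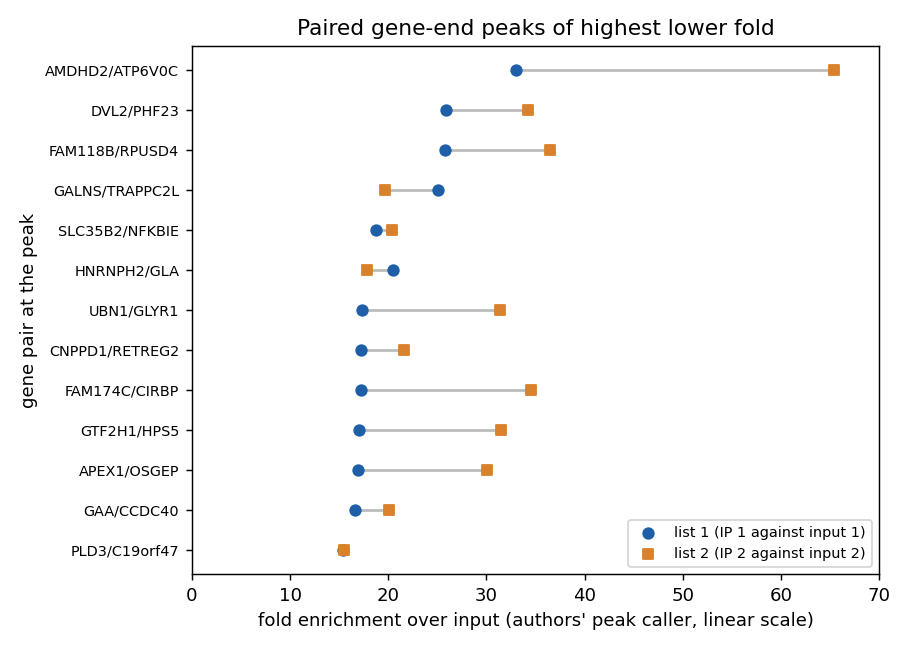
Fold enrichment over input at 13 of the 15 paired gene-end peaks of highest lower fold, on a linear axis, with list 1 as circles and list 2 as squares. AMDHD2/ATP6V0C stands furthest right in both lists (32.99 and 65.37), and the spread between the lists is wide at FAM174C/CIRBP and narrow at PLD3/C19orf47.

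Over all 411 paired peaks the fold ranged from 2.98 to 32.99 in list 1, with a median of 5.69, and from 2.86 to 65.37 in list 2, with a median of 6.73. One-gene peaks had medians of 5.69 and 6.545. The median tag count was 93 in list 1 and 108 in list 2 for paired peaks, against 84 and 98 for one-gene peaks. In both lists, 74 paired peaks reached at least 8-fold (18.0%, 14.6 to 22%), against 267 one-gene peaks (17.8%), and the share over all 5335 shared peaks was 18.2%. An FDR of 5% or less was given by both lists to 42 paired peaks (10.2%, 7.65 to 13.5%), against 9.02% of one-gene peaks, and the share over all shared peaks was 4.76%. The median fold of paired and one-gene peaks was thus the same in list 1 and nearly so in list 2.

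The 2 lists differed in how firmly they called the members. In list 1 the FDR was 100% for 144 paired peaks (35.0%), against 38.0% of one-gene peaks and 46.4% of all shared peaks. In list 2 it was at most 5% for 334 paired peaks (81.3%), against 76.3% of one-gene and 63.2% of all shared peaks. The fold was higher in list 2 at 296 paired peaks (72.0%), against 68.4% of one-gene and 63.0% of all shared peaks. Summits of the 2 lists lay a median of 52 bp apart at paired peaks, against 49 bp at one-gene peaks. They lay within 100 bp of each other at 270 paired peaks (65.7%), against 67.6% of one-gene and 75.7% of all shared peaks.

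Genes met head-to-head at most of the paired peaks. Strand was taken from the promoter table, which covers 15812 of 19974 protein-coding genes (79.2%), and orientation was read from the nearest end of the 2 nearest genes. There were 234 head-to-head members (56.9%, 52.1 to 61.6%), 51 head-to-tail (12.4%) and 3 tail-to-tail (0.73%). A further 20 members (4.87%) had the same kind of end of 2 genes on 1 strand, at an identical or a nearby coordinate. Another 4 were antisense in another way, and 99 (24.1%) lacked the strand of a gene. Of the 312 with known orientation, 75% (69.9 to 79.5%) were head-to-head. At least 1 known 5′ end lay within 1 kb of the centre in 372 members (90.5%), and one-gene peaks of known strand were nearest to a 5′ end in 1243 of 1283 (96.9%).

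Most members, 393 of 411, had 2 genes and 18 had 3. CTSA, the lysosomal protective protein and carboxypeptidase, begins 127 bp from the head-to-head start of NEURL2, and SPATA25 starts 263.0 bp from the centre. The peak of this triple had 14.1-fold in list 1 and 20.52-fold in list 2. Each of the next triples includes a read-through gene. RFXANK, a factor of MHC class II promoters, faces BORCS8, a subunit of the lysosome-positioning BORC complex, and the read-through gene BORCS8-MEF2B, at 8.41-fold and 13.93-fold. FMC1, an assembly factor of the mitochondrial ATP synthase, was counted with LUC7L2, a splicing factor, and FMC1-LUC7L2, at 8.04-fold and 9.52-fold. In all, 14 members included a read-through gene, 13 had their 2 nearest ends at an identical coordinate, and 15 included an uncharacterised LOC gene.

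The geometry of the head-to-head members placed the peaks between the starts more often than outside them. Of 227 such members with 2 genes, 168 had a gap between the genes, with a median of 231.5 bp and a range of 12 to 1268 bp, and in 59 the genes overlapped. The list 1 summit fell inside the gap in 111 of the 168 (66.1%, 58.6 to 72.8%), the list 2 summit in 100 (59.5%, 52.0 to 66.7%), and both in 86 (51.2%). The list 1 summit lay a median of 78 bp from the nearer start and 226.5 bp from the farther one. In the 51 head-to-tail members the centre was nearer to the 5′ end in 45, at medians of 152.5 bp from the 5′ end and 479.5 bp from the 3′ end.

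The 3 tail-to-tail members, named here because they are so few, had a median lower fold of 5.36, near the 5.26 of all paired peaks. C22orf23 with MICALL1 had 5.98-fold and 8.85-fold, DBP with SPHK2 5.36-fold and 6.18-fold, and FXYD3 with LGI4 3.72-fold and 4.82-fold. In list 1 the FDR of each was 100%. DBP, a clock-controlled bZIP factor, also had a paired peak at its 5′ end beside CA11 (6.25-fold and 9.47-fold), and SPHK2, a sphingosine kinase, had one at its 5′ end, head-to-head with the ribosomal protein gene RPL18 (4.96-fold and 6.74-fold). These neighbours on chromosome 19, RPL18, SPHK2, DBP and CA11, thus carried 3 paired peaks in a row, all at an FDR of 100% in list 1 and at most 0.65% in list 2.

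Setting the members against all neighbouring gene ends shows how orientation went with occupancy. The table held 5064 pairs of protein-coding genes with ends at most 2 kb apart, and a shared peak lay within 1 kb of both ends in 442 of them (8.73%). Head-to-head pairs were bound in 241 of 1199 cases (20.1%, 17.9 to 22.5%). Head-to-tail pairs were bound in 59 of 841 (7.02%, 5.48 to 8.94%) and tail-to-tail pairs in 5 of 921 (0.543%, 0.232 to 1.26%). The 3 intervals do not overlap. Of pairs on 1 strand with the same kind of end, 4.91% were bound, of other antisense pairs 6.45%, and of pairs with an unknown strand 7.09%. Head-to-head pairs were bound at nearly the same rate whether the genes overlapped (64 of 334, 19.2%) or not (177 of 865, 20.5%).

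Among head-to-head pairs the bound share was highest at gaps of 251 to 500 bp, at 29.5% (24.5 to 34.9%). It was 23.8% (20 to 28.2%) at 101 to 250 bp and 9.13% (6.05 to 13.6%) at 0 to 100 bp. Beyond 500 bp it was 19% up to 1000 bp and 4.85% up to 2000 bp. The window within 1 kb of both ends narrows as the gap widens, which leaves less room for a call at the widest gaps, and that window is widest for the pairs closest together. Head-to-tail pairs were also bound most often at 251 to 500 bp (13.9%), and tail-to-tail pairs stayed at or below 1.63% at every gap.

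**Figure D2:**
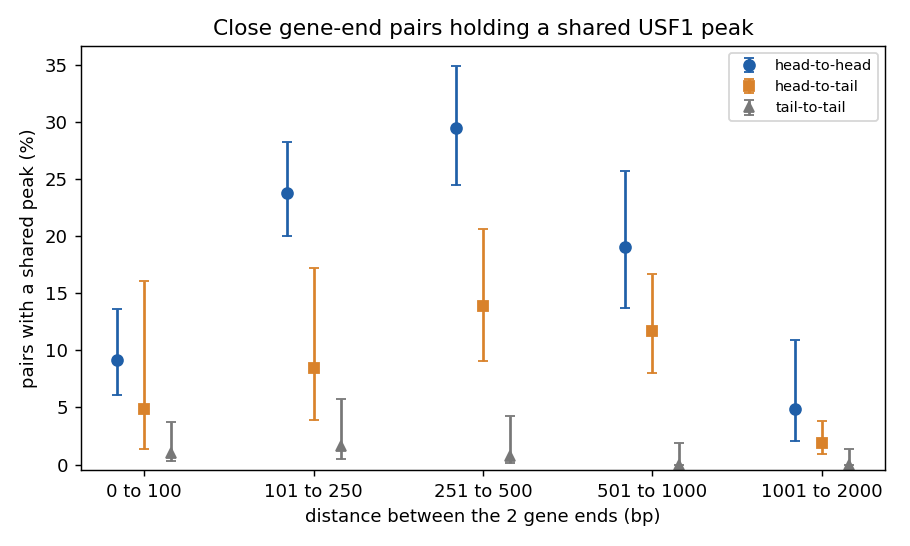
Share of close gene-end pairs with a shared peak within 1 kb of both ends, by the distance between the ends in bp and by orientation, with 95% Wilson intervals as bars. Head-to-head pairs reach 29.5% at 251 to 500 bp, and tail-to-tail pairs stay near 0 at every distance.

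Single gene starts showed the same order. A start with a head-to-head neighbour had a shared peak within 1 kb in 505 of 2361 cases (21.4%, 19.8 to 23.1%), against 901 of 9899 starts of genes with no close neighbour (9.1%, 8.55 to 9.68%). The start of the neighbour also lies in that window where the 2 starts are at most 1 kb apart, so 1 peak can count for both starts. At 103 of the 1199 head-to-head pairs the starts were 1001 to 2000 bp apart. Gene 3′ ends with a tail-to-tail neighbour had one in 0.934% of cases, against 0.283% of the 3′ ends of genes with no close neighbour.

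Promoter sequence differed between these starts as well. The 300-base promoters of genes with a head-to-head neighbour held a median of 26 CpG, against 20 in genes with no close neighbour. With CACGTG in the promoter, 55.0% (48.8 to 61.0%) of starts with a head-to-head neighbour were bound, against 32.8% (29.6 to 36.0%) of those without a close neighbour. Without CACGTG the shares were 17.4% (15.8 to 19.1%) and 6.96% (6.46 to 7.5%). By CpG content, the shares were 23.6% against 16% in promoters with most CpG (over 28), 21.4% against 12.1% in the middle class and 15.9% against 1.61% in those with fewest (up to 14). The starts with a head-to-head neighbour were bound more often in each of these classes. In no class did the intervals overlap, but they treat both starts of a pair as separate counts. Each start was classed by its own promoter only, while the 1 kb window can also cover the promoter of the neighbour. The classes therefore do not hold the sequence in that window fixed, and its part in the difference was not tested.

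Counted per promoter, the E-box was found at paired peaks about as often as at one-gene peaks. A promoter here is 250 bases before to 50 after a RefSeq start, read for members whose start lay within 1 kb of the centre. CACGTG, which is its own reverse complement and so is the same on both strands, was in 175 of 598 promoters at paired peaks (29.3%, 25.8 to 33.0%). One-gene peaks had it in 361 of 1210 (29.8%), head-to-head pairs with no shared peak in 118 of 1885 (6.26%, 5.25 to 7.44%), and all protein-coding promoters in 8.87%. ACCGGT, a palindrome of the same letters in another order, was in 4.01% of promoters at paired peaks, against 2.89% at one-gene peaks and 2% of all promoters. The longer palindrome TCACGTGA, which contains CACGTG, was in 9.36% of promoters at paired peaks, against 8.43% at one-gene peaks and 1.42% of all.

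The strongest members held the E-box most often. With the members ranked by lower fold and cut into 4 groups of about equal size, the first group ran over lower folds of 7.09 to 32.99, and there, 64.3% (56.6 to 71.4%) of promoters held CACGTG. The share was 29.7% in the second group (5.26 to 7.08), 12.1% in the third (4.27 to 5.23) and 8.5% (5.03 to 14.0%) in the fourth (2.86 to 4.25), which is within counting error of all promoters. The share of ACCGGT ran the other way, with 1.27%, 4.05%, 4.26% and 6.54%. Its intervals in the first group (0.35 to 4.53%) and the fourth (3.59 to 11.6%) overlap. At 8-fold or more in both lists CACGTG was in 77 of 112 promoters (68.8%, 59.7 to 76.6%), against 98 of 486 (20.2%, 16.8 to 24.0%) at the other paired peaks.

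**Figure D3:**
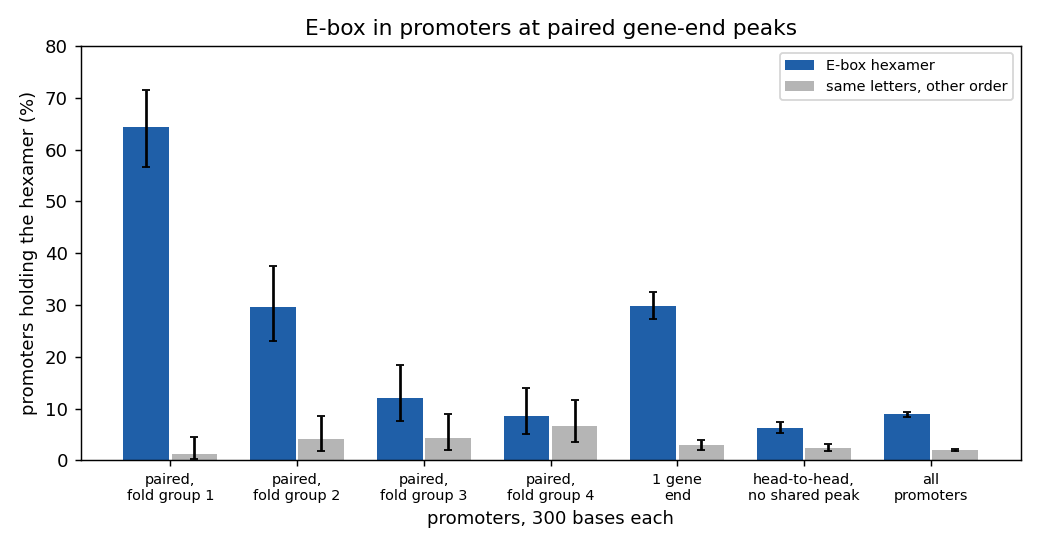
Share of 300-base promoters holding the E-box hexamer (left bars) or a palindrome of the same letters (right bars), with 95% Wilson intervals, in paired peaks by lower fold from the highest (group 1) to the lowest (group 4) and in 3 comparison sets. The E-box share is 64.3% in group 1 and 8.5% in group 4, near the 8.87% of all promoters.

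Several E-boxes often stood together at the strongest pairs. Counting each peak once over its promoters, 130 of 367 members with a promoter sequence held CACGTG (35.4%, 30.7 to 40.4%), against 362 of 1215 one-gene peaks (29.8%, 27.3 to 32.4%). The intervals overlap, and a paired peak can have more than 1 promoter. Of the 130 members, 96 held 1 site and 34 at least 2. Of the 67 members with at least 8-fold in both lists, 29 held at least 2 sites, against 5 of the other 300. Members with at least 2 sites had median folds of 13.4 (list 1) and 19.62 (list 2), against 7.14 and 9.3 with 1 site and 5.08 and 6.15 with none. Head-to-head and head-to-tail members held it about as often, in 37.6% (31.6 to 44.0%) and 36.0% (24.1 to 49.9%). The promoters of both genes can be searched at a head-to-head pair, while a head-to-tail pair meets its second gene at the 3′ end. These 2 shares therefore do not rest on equal amounts of sequence.

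**Figure D4:**
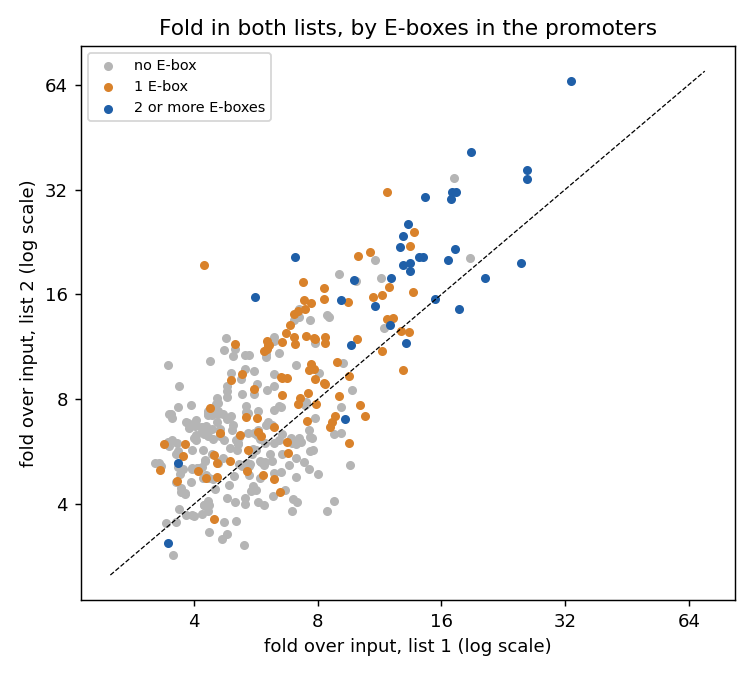
Fold over input in list 1 (horizontal) and list 2 (vertical), both on log scales, for the 367 paired peaks with a promoter sequence, coloured by the number of E-boxes in their promoters, with a dashed line of equal fold. Members with 2 or more E-boxes gather at the upper right, with medians of 13.4 and 19.62, and those with none at the lower left, with medians of 5.08 and 6.15.

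Of the first 15 members, 14 had a promoter sequence and 12 of these held CACGTG. SLC35B2/NFKBIE and FAM174C/CIRBP did not, and only 1 promoter of each pair was read. A promoter window without the letters says nothing of the rest of the peak. The base on the 5′ side of CACGTG, read on both strands, was T in 56.1% of 346 flanks at paired peaks and in 68.6% of 188 flanks at members of at least 8-fold. It was T in 51.4% at one-gene peaks and in 34.2% over all promoters.

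Summits lay close to these E-boxes. Over the 130 members with CACGTG, the distance from the summit to the centre of the nearest one had a median of 23 bp in list 1 and 16.5 bp in list 2. It was at most 50 bp in 71.5% of members in list 1 and 76.9% in list 2. For ACCGGT, found at 20 members, the medians were 111 and 148 bp. Of the 67 members with at least 8-fold in both lists, 55 held CACGTG and none held ACCGGT. The distances for the 2 hexamers thus come from peaks of unlike fold. At the APEX1/OSGEP pair the summits lay 1.5 bp and 5.5 bp from the middle E-box printed above.

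**Figure D5:**
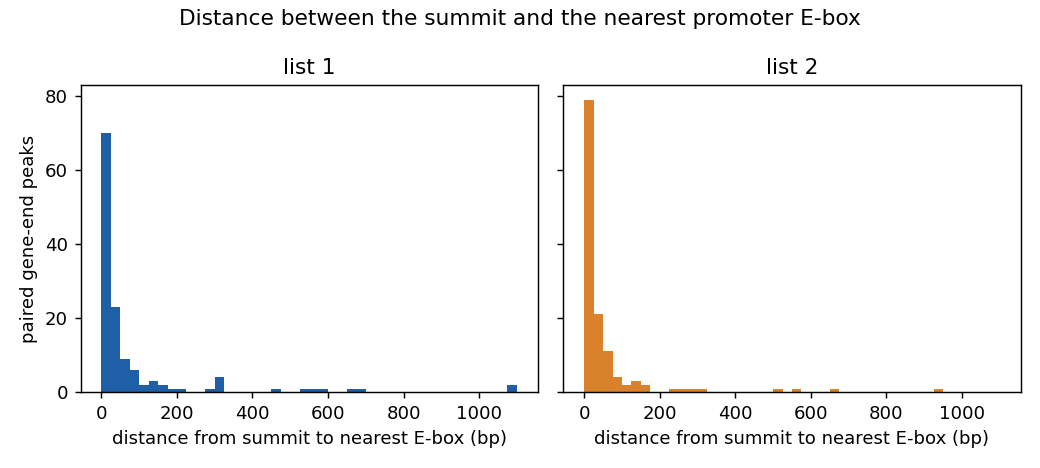
Distance in bp from the peak summit to the nearest E-box in a promoter, for the 130 paired peaks that hold one, in list 1 (left panel) and list 2 (right panel), in bins of 25 bp. The medians are 23 and 16.5 bp, and a few peaks lie far from any E-box of the promoter windows.

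By function, DNA repair and lysosome genes had the highest shares at paired peaks among the hand-written lists, counted over whole lists. Among genes with a close neighbour other lists came near them. The shares there were 31.0% for lysosome and autophagy, 29.5% for DNA repair and 26.3% for cell cycle genes. For bHLH-ZIP factors the share was 28.6%, but this is only 2 of 7 genes. Over all protein-coding genes 828 of 19974 (4.15%) had an end at a paired peak, and 11.4% of the 7267 genes with a close neighbour did. Of 60 DNA repair genes 13 did (21.7%, 13.1 to 33.6%), and these 13 were 29.5% of the 44 with a close neighbour. The 11.4% pools all orientations, and 21.4% of gene starts with a head-to-head neighbour had a shared peak within 1 kb. Orientation was not matched for any list, and its part in these shares was not tested. The lists were chosen with earlier results of these data known, so the shares are no independent evidence. Another 8 repair genes were at one-gene peaks, where the share over all genes was 7.45%. The 13 repair genes at paired peaks had a median lower fold of 6.86, against 5.26 over all paired peaks.

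The repair genes came from several pathways. APEX1, NTHL1 and TDG act in base excision repair. NTHL1, a glycosylase for oxidised pyrimidines, starts 151 bp from TSC2, a subunit of the TSC complex that restrains mTORC1, and their peak had 10.0-fold and 20.67-fold. TDG, the thymine DNA glycosylase, lies head-to-head with UQCC6, which encodes an assembly factor of respiratory complex III, at 12.88-fold and 9.7-fold. The summits of these 3 peaks lay at most 25.5 bp from an E-box printed above. XRCC3, a gene of homologous recombination, faces ZFYVE21 and had 7.87-fold and 11.59-fold. BRCA2, of the same pathway, with ZAR1L had 10.12-fold and 7.68-fold. FEN1, the flap endonuclease, with TMEM258, a subunit of oligosaccharyltransferase, had 7.03-fold and 11.53-fold. The repair kinase gene ATM and NPAT, a coactivator of histone genes, had 5.46-fold and 5.22-fold. List 1 FDRs ran from 0% at APEX1 to 100% at ATM.

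Lysosome and autophagy genes were at paired peaks in 9 of 56 (16.1%, 8.69 to 27.8%), or 31.0% of the 29 with a close neighbour, and 22 more at one-gene peaks. The 9 include ATG9A, reached by its 3′ end 233.0 bp from the centre, beside the 5′ end of ABCB6. GLA, GAA and CTSA were among the strongest, each at least 14.1-fold in both lists. Of 25 vacuolar ATPase subunits 3 were at paired peaks (12%). The peak of ATP6V0C, a gene reached by its 3′ end, stood far above the other 2. ATP6V1A (beside NAA50, an N-terminal acetyltransferase) had 5.1-fold and 5.98-fold. ATP6V1E1 (head-to-head with BCL2L13, a BCL2 family member) had 5.65-fold and 4.38-fold. The list was chosen with earlier results of these data known, so its share is no independent evidence.

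Of 45 cell cycle genes 5 were at paired peaks (11.1%, against 4.15% of all genes). These were 26.3% of the 19 with a close neighbour, against 11.4% of all such genes. CDKN2C, an INK4 inhibitor of CDK4 and CDK6, lies head-to-head with FAF1, an adaptor of the ubiquitin system, at 14.39-fold and 20.43-fold. MCM7, a subunit of the replicative helicase, overlaps AP4M1, a subunit of the AP-4 coat, at 13.41-fold and 22.03-fold. MCM2 of the same helicase, with TPRA1, had 7.89-fold and 11.9-fold, and CDKN2D, another INK4 inhibitor, with the nucleolar gene KRI1, had 6.0-fold and 8.5-fold. That last peak lay 32 bp from the 5′ end of KRI1, and CDKN2D was reached by its 3′ end, 482.0 bp away. The 2 strongest had FDRs no higher than 2.04%, and CDKN2D had 100% in list 1.

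Of 96 oxidative phosphorylation genes 9 were at paired peaks (9.38%, against 4.15% of all genes), or 16.1% of those with a close neighbour, against 11.4% of all such genes. This is a count that includes the assembly factor NDUFAF4 and the read-through gene ATP5MF-PTCD1. It also includes NDUFB6, reached by its 3′ end 630.0 bp from the centre, beside the 5′ end of TOPORS. NDUFA7 of complex I lies head-to-head with RPS28, a ribosomal protein gene, at 9.94-fold and 11.88-fold. SDHA of complex II with CCDC127 had 7.21-fold and 13.77-fold, NDUFAF4 with KLHL32 6.19-fold and 6.73-fold, and ATP5MF with its read-through gene 6.02-fold and 7.2-fold. Of 77 mitochondrial ribosome genes 5 were (6.49%, or 9.62% of those with a close neighbour), led by MRPS18C with the DNA helicase gene HELQ (11.78-fold and 13.63-fold) and MRPL30 with MITD1 (9.69-fold and 8.48-fold). MRPS28 with TPD52 had 6.85-fold and 9.2-fold, and MRPL27 with the nuclease subunit gene EME1 had 5.98-fold and 10.59-fold. The chaperonin genes HSPD1 and HSPE1, whose products fold proteins in the mitochondrial matrix, share a head-to-head gap of 105 bp, with a read-through gene also counted there, and had 3.79-fold and 5.96-fold.

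Transcription and translation genes were represented by few pairs. MLX, a bHLH-ZIP factor of the same class as USF1, with COASY, an enzyme of coenzyme A synthesis, had 13.36-fold and 12.47-fold. SREBF2, the regulator of sterol synthesis, with CCDC134, had 6.25-fold and 12.1-fold, and these were 2 of 23 bHLH-ZIP genes. MVK, the mevalonate kinase, with MMAB, an enzyme of cobalamin metabolism, had 9.19-fold and 10.18-fold and was the only one of 47 lipid and glucose metabolism genes at a paired peak. Of 34 genes of RNA polymerase II and mediator 3 were (8.82%). POLR2A, the catalytic subunit, with ZBTB4 and SLC35G6, had 4.95-fold and 6.53-fold, POLR2I with TBCB 3.63-fold and 4.66-fold, and MED14 with CXorf38 3.47-fold and 7.27-fold. The cytosolic ribosome contributed RPS28 and RPL18, given above, and RPL41, reached by its 3′ end, with ZC3H10 (4.27-fold and 4.83-fold), 3 of 80 genes. Of the histone genes 5 of 94 were, in 2 peaks, H2BC11 with H2AC11 (6.44-fold and 6.09-fold) and H2AC20 with H2BC21 and, by its 3′ end, H2AC21 (4.35-fold and 3.96-fold). Apart from ATP5MF with its read-through gene, these were the 2 members whose pair lay within 1 list.

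Other lists had 1 to 3 genes at paired peaks. Among 25 unfolded protein response genes these were DNAJB9, an ER co-chaperone, head-to-head with THAP5 (5.64-fold and 15.71-fold), and DNAJB11, another ER co-chaperone, with TBCCD1 (5.4-fold and 6.38-fold). Among 39 ribosome biogenesis genes they were WDR75 with COL5A2 (7.64-fold and 13.46-fold), NOL8 with the centromere gene CENPP (6.25-fold and 6.64-fold) and WDR74, whose 3′ end lay 997.0 bp from the centre, with STX5 and TEX54 (4.27-fold and 6.52-fold). Of 37 tRNA synthetase genes they were the mitochondrial enzymes EARS2 with UBFD1 (5.89-fold and 4.84-fold) and CARS2 with ING1 (4.35-fold and 3.32-fold). Of 50 proteasome genes PSMD9 with HPD had 6.51-fold and 9.29-fold, and PSME3IP1, matched by its symbol although it is no subunit, with RSPRY1 had 5.23-fold and 9.46-fold. DVL2 was the only one of 28 Wnt pathway genes and DBP the only one of 21 clock genes. None of these exceeded 8-fold in both lists except DVL2.

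Zinc finger genes with ZNF symbols were at paired peaks in 10 of 517 (1.93%, 1.05 to 3.52%), against 4.15% over all genes. Only 142 of the 517 have a close neighbour, and of these 7.04% were at a paired peak, against 11.4% of all such genes. ZNF292, head-to-head with an uncharacterised LOC gene, had 14.58-fold and 30.39-fold. ZNF512 with SPATA31H1 had 8.33-fold and 12.04-fold, ZNF318 with another LOC gene 7.6-fold and 9.67-fold, and ZNF524 with FIZ1 5.57-fold and 5.76-fold. No gene of the lists of hepatocyte factors and products (30 genes), tail-anchored protein insertion (7), HOX (40) or olfactory receptors (392) was at a paired peak. Of the 30 hepatocyte genes 4 have a close neighbour, and of the 392 olfactory receptor genes 36 do.

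Of 20 gene pairs listed as known neighbours, 18 lie within 2 kb of each other in the table, and 8 were members. Over all close pairs the bound share was 8.73%, and over head-to-head pairs it was 20.1%. The difference was not tested. AMDHD2/ATP6V0C and DVL2/PHF23 were on that list because the rule named them as examples, which leaves 6 of 16. Among these 6 were the pairs of HSPD1, ATM, BRCA2 and FEN1 given above, and TK1, the thymidine kinase, with AFMID (4.43-fold and 7.19-fold, FDR 100% in list 1). Head-to-head pairs such as COL4A1 with COL4A2, PSMD13 with SIRT3 and HARS1 with HARS2 lie 127, 45 and 85 bp apart and had no shared peak within 1 kb of both starts.

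At the 1 kb limit, the members whose second gene was farthest from the centre were SRSF2/MFSD11 (997.5 bp, 4.73-fold and 11.09-fold), VAC14/HYDIN (997.5 bp, 7.14-fold and 7.74-fold) and CISD1/IPMK (995.0 bp, 4.28-fold and 4.76-fold). Just outside were RCCD1/UNC45A (1009.5 bp, 10.33-fold and 10.68-fold), NR1D2/NKIRAS1 (1011.5 bp, 8.15-fold and 13.34-fold) and ANAPC16/ASCC1 (1013.5 bp, 5.17-fold and 8.1-fold).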

How the data were processed

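ChIP-seq peaks of 2 USF1 IP libraries from Huh7 cells were called by the authors, each against its own input, by MACS 1.4.2 with the p limit set to 1e-05 and with at most 1 tag kept per position, per the file headers. Bowtie2, deepTools, HOMER and GRCh38 are named per the submitters' processing notes. The deposited tag counts are whole numbers per peak and are not scaled to library size. The deposited fold enrichment is a ratio of IP tags to the tags expected at the summit. The deposited score is 10 times the minus log10 of the peak caller's p. The deposited FDR is a percent from IP and input swapped. These values are the authors' own.

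Gene coordinates and strand came from RefSeq tables of GRCh38.p14. Genes without a promoter entry have no strand here. Motifs were searched on both strands. Shares have 95% Wilson intervals, which cover counting error only, and no test was run. Replicate spread is shown by giving the values of both lists. Counting code was checked on simulated peaks. Python 3.11.15, numpy 2.4.6, pandas 2.3.3, statsmodels 0.14.6 and matplotlib 3.10.9 were used.

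The members and the gene lists were chosen with earlier results of these data known. Genes were named by rule: DVL2/PHF23 and AMDHD2/ATP6V0C, the 15 members of highest lower fold, up to 4 genes of each list, the listed known pairs, 3 peaks on each side of the 1 kb limit and 3 members with 3 genes. A few members that the rule would name are not reported here. The tail-to-tail pairs, SPHK2/RPL18, the unbound known pairs named, and the choice of sequences shown were added after their values were seen. Alternatives were other distances, thresholds, overlaps, gaps and motifs, peak summits, single lists and the removal of read-through genes.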

Additional observations from a re-analysis of the deposited data

How the results depend on the processing

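The 411 paired peaks became 74 at 8-fold or more in both lists, 181 at p of at most 1e-10 and 42 at an FDR of at most 5%, and single lists gave 510 to 985. The bound share of all close pairs (8.73%) was 6.22% within 500 bp, 11.6% within 2 kb, 1.56%, 3.87% and 0.869% at those 3 thresholds, 9.61% without read-through genes and shared ends, 11% for gaps up to 1 kb, and 10.9 to 20.7% with single lists. For head-to-head pairs (20.1%) it was 15.7% within 500 bp, 22.7% within 2 kb, 3.84%, 9.42% and 2.42% at the thresholds, and 26.0 to 47.7% with single lists. Tail-to-tail pairs were bound in at most 2.06% under any setting. The head-to-head share of members (75%) was 80.3% within 500 bp, 67.2% within 2 kb, 80% at the FDR limit, and 72.9 to 76.0% with single lists. The median lower fold (5.26) was 11.7, 7.14 and 13.5 at the thresholds, which select on fold, and 5.52 to 5.6 with single lists. The E-box share of promoters (29.3%) was 68.8%, 44.6% and 74.2% at the thresholds, 9.36% for TCACGTGA, 4.01% for ACCGGT, 35.4% with each peak counted once (an alternative chosen after seeing the data), and 17.4% (list 2 alone) to 24.3% (list 1 alone). Head-to-head pairs were bound more often than tail-to-tail pairs under every setting run. No paired analysis was possible because the results come from no test between groups, and each list already combines an IP with the input of the same number. Precision is limited by 2 lists, by genes without strand, by promoter windows of 300 bases that miss part of many peaks, and by an FDR of 100% in list 1 for 144 members.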
